A study of Mus musculus with 2 samples.

Results

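The cytosolic ribosome is built from ribosomal RNA and a fixed set of ribosomal proteins, with 1 copy of nearly every protein in each particle. Proteins of the large subunit carry the prefix Rpl and those of the small subunit the prefix Rps. Most of their mRNAs belong to the TOP class, whose transcripts begin with a C followed by a run of pyrimidines and whose translation is controlled by mTOR signalling and the RNA-binding protein Larp1. In the embryonic neural tube, the precursor of the brain and spinal cord, dividing progenitors and newly formed neurons both need a supply of ribosomes. Several of these proteins have a second, related gene, and the forms encoded by such paralogs are known from germ cells, muscle and growth control.

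The genes described are the cytosolic ribosomal protein genes, chosen by name alone. A gene was taken where its annotation is protein-coding and its symbol is Rpl or Rps followed by the usual number or letter, and the 10 Rps6k kinases that share the prefix were left out. This gave 86 of 21474 protein-coding genes, or of 43346 genes in all. Of the 86, 46 are canonical large subunit genes, 31 are canonical small subunit genes and 8 are paralogs. The remaining gene, Rps19bp1, encodes a partner of a ribosomal protein and not a ribosomal protein, and it was kept apart at 54.8 and 59.8 TPM.

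The data are total RNA-seq of neural tube from B6NCrl mouse embryos at embryonic day 11.5, in 1 group of 2 biological replicates with no treatment, mutation or second tissue. Replicate 1 pooled tissue of 109 embryos and replicate 2 tissue of 88, with both sexes in each pool, and 10 ng of RNA, size-selected above 200 bases and mixed with spike-ins, went into each library. The files held 27638068 expected counts for replicate 1 and 29166901 for replicate 2. Levels are TPM, the share of a transcript per length scaled to a common total, given for replicate 1 and then replicate 2 or as mean ± SD (n = 2). With 1 group there is no contrast to test, so every comparison below is set against the spread between the 2 libraries. All of 6 neural progenitor markers and all of 5 neuron markers were detected, which here means 1 TPM or more in both libraries. So were all of 5 markers of red blood cells, led by Hbb-y at 6724 ± 6.55 TPM, and all of 5 markers of mesenchyme and muscle, so RNA of other cell types was present in the pools.

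The start of the mRNA is shown first, because the pyrimidine run there defines the TOP class. RefSeq promoters (GRCm38.p6) were matched for 56 of 77 canonical genes and for 8 of 8 paralogs. Each line below gives 15 bases before and 15 bases from the annotated start, 5′ to 3′ on the gene's own strand, and capitals mark the longest run of C or T that reaches within 5 bases of that start. The first 4 genes were picked for long runs and the next 5 because their levels are compared below, and Rps19 is a highly expressed gene with no long run at its annotated start.
Rpl27a (chr7:109519180-109519209, plus strand): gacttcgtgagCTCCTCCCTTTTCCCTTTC
Rpl15 (chr14:18270972-18271001, minus strand): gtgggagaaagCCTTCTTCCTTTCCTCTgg
Rps18 (chr17:33955651-33955680, minus strand): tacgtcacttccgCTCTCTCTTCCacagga
Rpl38 (chr11:114668565-114668594, plus strand): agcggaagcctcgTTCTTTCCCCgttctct
Rps27l (chr9:66946071-66946100, plus strand): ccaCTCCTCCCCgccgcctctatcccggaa
Rps27rt (chr9:114982725-114982754, minus strand): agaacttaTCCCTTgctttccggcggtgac
Rps27 (chr3:90213634-90213663, minus strand): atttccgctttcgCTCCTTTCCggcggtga
Rpl22l1 (chr3:28805493-28805522, plus strand): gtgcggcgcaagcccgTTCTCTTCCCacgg
Rpl22 (chr4:152325711-152325740, plus strand): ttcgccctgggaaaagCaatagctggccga
Rps19 (chr7:24884898-24884927, plus strand): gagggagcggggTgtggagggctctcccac

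The run in Rpl27a goes on past the printed end to 20 bases, that of Rpl15 is 17 bases long, and that of Rps18 is 11. Of runs of equal length only the first is in capitals. In Rps27rt a second run of 6 bases, not in capitals, begins with the C at the annotated start. The annotated starts are not measured here. They lay a median of 27 bases from the start of the transcript with the highest level of the canonical gene, and 100 bases away for Rps19 and 127 for Rpl22, so a missing run says only that these letters are not in this window.

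A run of at least 8 pyrimidines that reached within 5 bases of the annotated start was present in 33.9% of canonical ribosomal protein genes. It was present in 2 of 8 paralogs (Rps27l and Rpl22l1) and in 9.62% of all 16190 protein-coding genes with a matched promoter. The cutoff of 8 leaves out shorter runs. The median of the longest run there was 5 bases in canonical genes and 3 in all protein-coding genes. A run of 8 or more may end before the start, as in Rps27l, and then lies outside an mRNA that begins there. Counting runs anywhere within 50 bases on either side, the shares were 80.4% for canonical genes, 33.8% for mitochondrial ribosomal protein genes and 34.6% for all protein-coding genes. The base at the annotated start was C in 35.7% of canonical genes and in 14.1% of all. Among 4 motifs searched on both strands and independently of each other, over 250 bases before to 50 after the start, CCGGAAG, the core bound by ETS factors, was found in 39.3% of canonical genes, in 35.3% of mitochondrial ribosomal protein genes, in 18.3% of protein-coding genes with a mean of 1 TPM or more and in 12.6% of all. AAGATGGC was found in 5.36% of canonical genes, 17.6% of mitochondrial ones and 3.29% of all. CACGTG was found in 8.93% of canonical genes and 8.15% of all, and TATAAA in 8.93% and 12.7%. These matches describe the sequence and are no measure of binding.

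Every canonical ribosomal protein gene was detected, 77 of 77, against 59.9% of all protein-coding genes. Together with the paralogs they took 5.35% of all TPM in replicate 1 and 5.19% in replicate 2, a mean of 5.27% ± 0.114. Of expected counts, which are not divided by length, they took 1.98% ± 0.0663. The canonical genes have lengths from 255 to 1861 bases in the files, with a median of 683. The median canonical gene stood at 616 TPM, beside a median of 19.9 TPM over the detected protein-coding genes. In both libraries 75 of 77 canonical genes reached 100 TPM, which 6.89% of protein-coding genes did. In both libraries, 21 of the 100 highest protein-coding genes and 47 of the 200 highest were canonical ribosomal protein genes. Ribosomal proteins whose symbols fall outside the name rule had levels of the same order. Rack1, a signalling scaffold of the small subunit, had 515 ± 4.24 TPM and Fau, a ubiquitin-like fusion with a small subunit protein, had 501 ± 1.95 TPM.

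**Figure D1:**
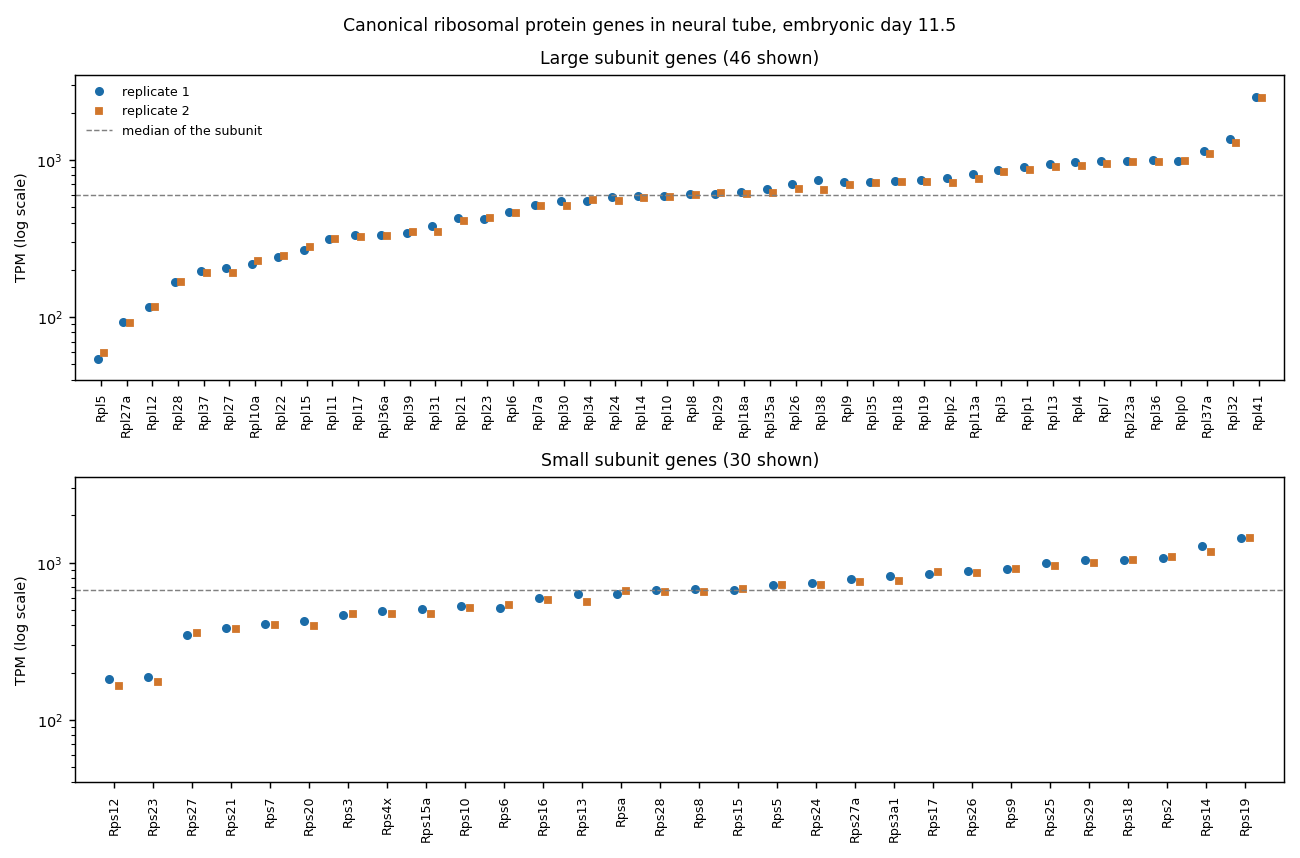
TPM of canonical ribosomal protein genes on a log scale, large subunit genes above and small subunit genes below, ordered by mean level, with a point for each library and a dashed line at the median of each subunit. The points of the 2 libraries lie close together, and the lower tail of the large subunit reaches 56.5 TPM where that of the small subunit ends at 173 TPM.

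Levels within the canonical set were not equal. The middle 50% of genes lay between 412 and 862 TPM, and 42 of 77 lay between 500 and 1000. Above 1000 TPM stood 9 genes and below 200 TPM stood 8. The 90th percentile was 4.83 times the 10th. This order was nearly the same in both libraries, with a Spearman rho of 0.995 over the 77 genes, which share their gene lengths and annotation. The median coefficient of variation of a canonical gene between the libraries was 2.44%.

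Among large subunit genes the highest was Rpl41 (chromosome 10, 128548114 to 128549305, minus strand, GRCm38), which encodes a very short peptide, at 2505 and 2485 TPM. Its level was well clear of every other member in both libraries. Next came Rpl32 at 1362 and 1275 TPM and Rpl37a at 1146 and 1094 TPM. Rplp0, the scaffold of the stalk that binds elongation factors, had 988 and 989 TPM, Rpl36 had 995 and 973 TPM, and Rpl23a had 990 and 970 TPM. Rplp0 lay between the 2 values of Rpl36 and between those of Rpl23a, and Rpl36 was slightly above Rpl23a in both libraries. The other stalk proteins, Rplp1 and Rplp2, had 881 ± 31.0 and 743 ± 36.2 TPM, with Rplp0 higher than Rplp1 and Rplp1 higher than Rplp2 in both libraries.

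The small subunit was led by Rps19 (chromosome 7, 24884371 to 24889806, plus strand), a protein whose human gene is the most often mutated in Diamond-Blackfan anaemia, at 1440 and 1432 TPM. Rps14 had 1284 and 1175 TPM, below Rps19 in both libraries. Further down, Rps2 had 1074 and 1087 TPM, Rps18 had 1036 and 1041 TPM and Rps29 had 1042 and 998 TPM. Rps27a, which is made as a fusion with ubiquitin, had 784 and 752 TPM, above the median of its subunit. Rpsa, also known as the laminin receptor, had 630 and 664 TPM, close to that median.

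The lowest canonical gene was Rpl5 (chromosome 5, 107900502 to 107909005, plus strand), which with Rpl11 and the smallest rRNA forms the complex that binds Mdm2, at 54.1 and 58.9 TPM. Rpl27a had 93.2 and 91.3 TPM, Rpl12 had 117 TPM in both libraries and Rpl28 had 167 TPM in both. Rpl37 had 197 and 190 TPM and Rpl27 had 206 and 191 TPM. In the small subunit the lowest genes were Rps12, at 181 and 165 TPM, and Rps23, a protein of the decoding centre, at 187 and 174 TPM. Between these and the next gene there was a gap, since Rps27 had 349 and 360 TPM, Rps21 had 385 and 378 TPM, Rps7 had 410 and 401 TPM and Rps20 had 427 and 397 TPM.

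The 8 genes below 200 TPM were read beside their copies elsewhere in the genome, a comparison in which the gene's own low level takes part. Ribosomal protein mRNAs are a frequent source of processed pseudogenes, intronless copies pasted elsewhere in the genome, and reads of a gene and a near-identical copy cannot be assigned with certainty. Copies were sought among annotated genes other than the members themselves. A copy's transcript had to match a ribosomal protein transcript at 95% identity or more over at least 50% of the copy's length on the same strand. Rps27rt, a member whose coding sequence is identical to that of Rps27, was therefore not counted as a copy of Rps27. The search found 487 copies, 475 of them annotated as pseudogenes, and 73 of 77 canonical genes had at least 1. Most had few reads: 137 were at 0 counts in both libraries and 25 reached a mean of 100 TPM. Summed, the copies held 1.29% ± 0.0301 of TPM.

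For all 8 canonical genes below 200 TPM the copies summed to more TPM than the gene itself, and this held for 11 of 77 canonical genes and for 0 of the 9 genes above 1000 TPM. The copies took from 64.2% to 91.5% of the sum of gene and copies in those 8, and a median of 0.934% in the 9 highest. Rpl5 with its copies came to 667 ± 23.0 TPM, of which Gm15500, a copy of 100% identity on chromosome 7 (114705217 to 114706235), held 628 and 591 TPM. Rps23 with its copies came to 1173 TPM, of which Rps23-ps1 (chromosome 3, 37714740 to 37715164) held 1017 and 960 TPM. For Rpl27a the copy Gm7536 held 437 and 430 TPM, and for Rpl12 the copy Gm10275 held 282 and 274 TPM. Rpl28-ps1 held 485 and 473 TPM, and Gm11518 and Rpl27-ps3, copies of Rpl27, had means of 504 and 410 TPM. Among the copies of these 8 genes, a pair bears a gene-like symbol. Rpl37rt, annotated as a transcribed pseudogene, had 595 and 551 TPM, and Rps12l1 had 265 and 276 TPM.

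With its copies added to each gene, the ratio of the 90th to the 10th percentile of canonical genes was 2.99 in place of 4.83. In these sums Rps27 stayed at its own mean of 355 TPM, since Rps27rt was not added to it. The SD of log2 TPM over the 77 genes was 0.63 with copies and 0.94 without. A gene's own level enters the share held by its copies, so a low gene has a higher share for the same copies. Summed over its copies alone, each of the 8 genes below 200 TPM had between 286 and 993 TPM. Between TPM and the percent of a gene's windows of 100 bases that occur in another gene, a measure with no level in it, the Spearman rho was -0.10, as a description over 77 genes that share both libraries. The 28 genes with under 1% of the sum in copies had a median of 737 TPM and ranged from 243 to 1436 TPM. The lowest of them was Rpl22. They include Rps27, for which Rps27rt was not counted as a copy. Unequal levels were thus present among genes with little in the copies counted. What part of the copies' reads came from the parent genes was not tested.

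**Figure D2:**
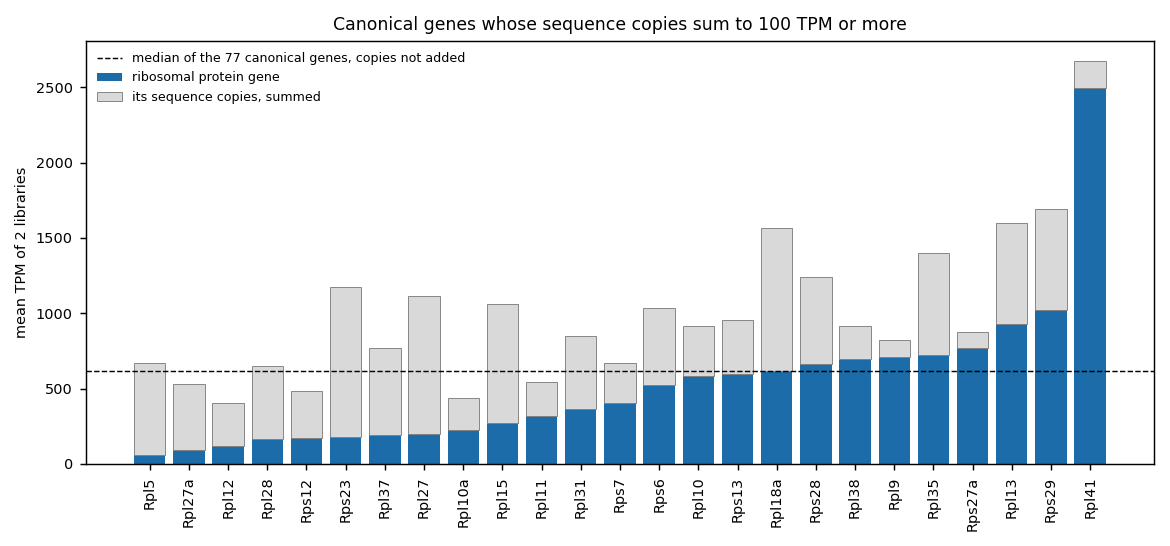
Mean TPM of the canonical genes whose sequence copies sum to 100 TPM or more, with the gene in blue and its copies stacked in grey, and a dashed line at the 616 TPM median of all canonical genes. In the 8 genes at the left the grey part is the longer one, and Rpl5 with its copies reaches 667 TPM.

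Set against each other, large subunit genes had a slightly lower typical level than small subunit genes. The median canonical gene had 595 ± 6.29 TPM in the large subunit and 669 ± 7.54 TPM in the small subunit. As a difference of medians of log2(TPM + 1), large minus small was -0.17 in each library, with an SD of 0.00095 between the libraries. That SD tells how closely the libraries repeat each other and not how far genes vary. The difference measures these 46 and 31 genes in the same 2 libraries, and genes are not replicates. Per gene, large subunit genes averaged 622 ± 14.7 TPM and small subunit genes 708 ± 11.3 TPM. Without Rpl41 the large subunit mean was 580 TPM. Spread was wider in the large subunit, with an SD of log2 TPM over genes of 1.05 against 0.72 in the small subunit. The difference was -0.30 among genes with less than 50% of their sequence windows of 100 bases shared with another gene. It was -0.12 with copies added, where Rps27rt was not added to Rps27.

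The 8 paralogs fell into 2 kinds. Of these genes Rpl22l1, Rpl36al, Rps27l and Rps27rt had levels close to or above their canonical partner, while Rpl7l1, Rpl3l, Rpl39l and Rpl10l were lower than theirs in both libraries. Of the lower 4, only Rpl7l1 was detected.

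Rpl22l1 (chromosome 3, 28805436 to 28807424, plus strand) is the paralog of Rpl22 (chromosome 4, 152325742 to 152334071, plus strand), and in mouse the loss of Rpl22 is known to raise it. Rpl22l1 had 261 and 244 TPM, against 241 and 245 TPM for Rpl22. The values overlap, and Rpl22l1 took 51.0% ± 1.41 of the pair. Its difference on the log2(TPM + 1) scale was 0.06 ± 0.08, positive in replicate 1 and just below 0 in replicate 2, so the libraries do not separate them. Their coding sequences are 70.8% identical over the aligned bases and share no window of 100 bases. Within a stretch of 60 coding bases, shown to compare the pair, capitals mark the 24 differing bases.
Rpl22l1 (coding bases 154 to 213): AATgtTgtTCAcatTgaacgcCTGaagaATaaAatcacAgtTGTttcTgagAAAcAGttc
Rpl22 (coding bases 175 to 234): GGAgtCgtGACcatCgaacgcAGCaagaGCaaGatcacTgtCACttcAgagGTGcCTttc

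Rpl36al, an autosomal relative of the X-linked Rpl36a, had 394 and 365 TPM, against 332 and 328 TPM for Rpl36a. Both values of Rpl36al lay above both values of Rpl36a. The log2 difference was 0.20 ± 0.07 and the ratio of TPM 1.15 ± 0.0546. The coding sequences are 87.9% identical, with 39 differing bases of 321.

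The S27 family holds 3 genes. Rps27l (chromosome 9, 66946086 to 66949516, plus strand), known as a target of p53, had 496 and 462 TPM, against 349 and 360 TPM for Rps27 (chromosome 3, 90212522 to 90213651, minus strand). That is a log2 difference of 0.43 ± 0.10, with no overlap between the genes. Rps27rt (chromosome 9, 114982366 to 114982739, minus strand), a retrogene, was listed at 989 and 909 TPM, a log2 difference of 1.42 ± 0.12 from Rps27. Its coding sequence is identical to that of Rps27 over all 255 bases, and 98.4% of the windows of 100 bases of Rps27 and 88.0% of those of Rps27rt occur in the other. The split of reads between Rps27rt and Rps27 is therefore uncertain. Their sum was 1339 and 1269 TPM, and Rps27l came to 0.367 ± 0.00481 of it. Rps27l thus stood above Rps27 as listed and below the sum of the identical genes. Rps27l shares no window of 100 bases with Rps27, and a stretch of 60 coding bases is given, with the 19 differing bases in capitals, to show how these genes differ where Rps27rt and Rps27 do not.
Rps27l (coding bases 4 to 63): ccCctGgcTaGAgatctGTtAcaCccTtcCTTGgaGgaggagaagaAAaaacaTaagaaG
Rps27 (coding bases 4 to 63): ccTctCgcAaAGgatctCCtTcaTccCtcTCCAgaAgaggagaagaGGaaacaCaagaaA

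Rpl7l1 had 110 and 106 TPM, against 987 and 949 TPM for Rpl7. This was a log2 difference of -3.15 ± 0.01, and Rpl7l1 held 10.0% ± 0.0467 of the pair. Its coding sequence is the most distant of the 8, at 59.9% identity.

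The remaining paralogs were near or at 0 reads. Rpl3l, which replaces Rpl3 in heart and skeletal muscle, had 1 count in replicate 1 and 0 in replicate 2, against 865 and 835 TPM for Rpl3. Rpl39l, known from the male germ line, had 2 counts and 1 count, which gives 0.16 and 0.12 TPM, against 342 and 350 TPM for Rpl39. Rpl10l, an autosomal relative of the X-linked Rpl10 that is active in the testis, had 0 counts in both libraries, against 590 and 581 TPM for Rpl10. A count of 0 allows up to 3 counts, which for Rpl10l is 0.187 TPM in replicate 1 and 0.181 TPM in replicate 2. No window of 100 bases is shared within these 3 pairs. At this depth no expression of Rpl10l was detectable, and the counts of Rpl3l and Rpl39l were at or below that limit of 3. Rpl39l and Rpl39 are 85.3% identical, and the 60 coding bases below show how their 13 differences there are spread.
Rpl39l (coding bases 94 to 153): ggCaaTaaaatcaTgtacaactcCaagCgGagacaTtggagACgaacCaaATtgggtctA
Rpl39 (coding bases 94 to 153): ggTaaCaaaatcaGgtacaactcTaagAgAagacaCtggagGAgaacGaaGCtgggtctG

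**Figure D3:**
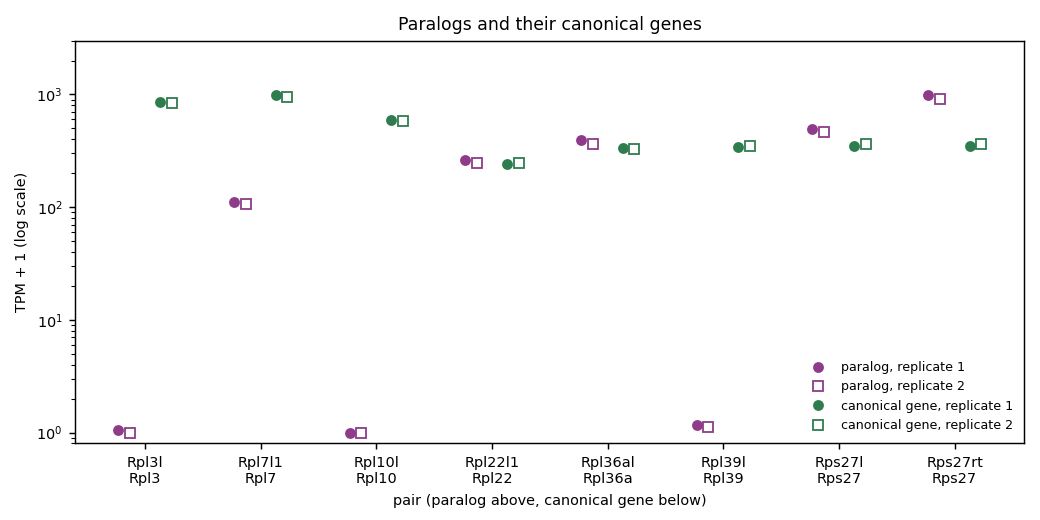
TPM + 1 on a log scale for each of the 8 paralogs (purple, left of each pair) and its canonical gene (green, right), with filled circles for replicate 1 and open squares for replicate 2. Rpl22l1, Rpl36al, Rps27l and Rps27rt lie close to or above their partners, Rpl7l1 lies below at 108 TPM, and Rpl3l, Rpl39l and Rpl10l lie at the floor of the plot.

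Between the pools, ribosomal protein genes differed little in size, like most genes with a mean of 1000 counts or more, and mostly in 1 direction. Ratios of replicate 2 over replicate 1 were taken from expected counts after TMM scaling. A gene was counted as different where its level in 1 library was more than 25% above that in the other. None of the 82 ribosomal protein genes with enough counts was, which is near the 0.749% of the 6273 genes with a mean of 1000 counts or more. Of all 17085 genes tested, which include genes with few counts, 21.3% were. The 3 without a ratio were Rpl3l, Rpl39l and Rpl10l. Of the 82, 75 were lower in replicate 2, where 50.4% of all genes tested and 49.1% of those with a mean of 1000 counts or more were. Their median log2 ratio was -0.08, beside -0.00 over all genes, and the range ran from -0.24 to 0.05. The lower levels held in 42 of 46 large subunit genes and in 28 of 31 small subunit genes. The 3 largest decreases were in Rpl38, a protein that in mouse mutants affects axial patterning (log2 ratio -0.24, 647 TPM in replicate 2 against 744 TPM in replicate 1), Rps13 (-0.20) and Rps12 (-0.17). The 3 largest increases in canonical genes were in Rpl22 (0.05), Rpl10a (0.04) and Rpsa (0.03), and the like-named Rps19bp1 had a ratio of 0.08. With 1 library on each side there is no replicate check of these ratios.

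Other genes also differed between the libraries. Among other protein-coding genes with a mean of 1000 counts or more and a length of up to 1000 bases, as 67 of 77 canonical genes have, 76.6% of 385 were lower in replicate 2, with a median log2 ratio of -0.04. Over the whole range of lengths of canonical genes, 60.6% of 1562 such other genes were lower. Mitochondrial ribosomal protein genes had a median of -0.05. Neuron markers were higher in replicate 2, with a median log2 ratio of 0.15 over 5 genes. Mesenchyme and muscle markers were lower, with a median of -0.28 over 5 genes. The medians were 0.04 over 6 neural progenitor markers and -0.03 over 5 markers of red blood cells. In bulk tissue, fewer cells of a type and less RNA per cell cannot be told apart, and the part of length or of tissue makeup in the ratio was not tested.

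**Figure D4:**
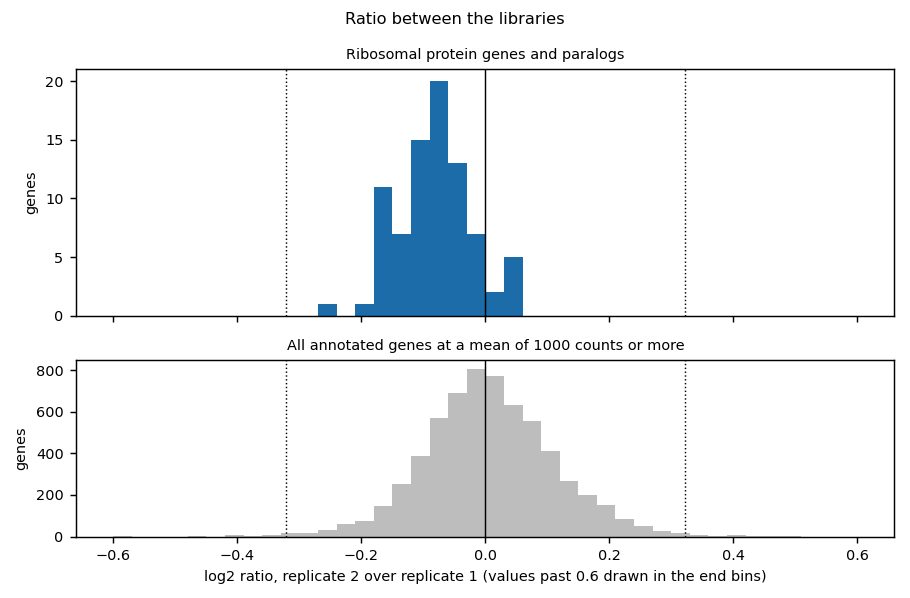
Histograms of the log2 ratio of replicate 2 over replicate 1, for the 82 ribosomal protein genes (above, blue) and for all 6273 annotated genes with a mean of 1000 counts or more (below, grey), with dotted lines where 1 library is 25% above the other. The ribosomal protein genes lie within the dotted lines, and 75 of them lie below 0.

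The leading transcript was compared between the pools. Of 77 canonical genes, 57 have several annotated transcripts, and the leading transcript was the same in both libraries for 56 of them. The exception was Rpl15, where a pair of coding transcripts were level, at 37.6% and 37.5% in replicate 1 and at 35.2% and 35.4% in replicate 2. The median leading share was 85.9%, and 23 of 57 genes had 90% or more of their TPM in 1 transcript. The leading share changed between the libraries by a median of 0.97 percentage points, and by up to 7.49 in Rpl5. In Rpl29 it was 52.0% and 59.3%, and in Rpl22 the second transcript held 4.07% and 15.6%, both named after their values were seen. The lowest shares were in Rpl13a (36.0% ± 1.63, a transcript absent from the later annotation used for names), Rpl15, Rpl38 (45.3% and 49.9%), Rpl5 (53.2% and 45.7%), Rpl11 (52.5% and 48.6%) and Rps14 (53.8% and 53.2%).

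In Rpl5, the lowest canonical gene, the second transcript was not a coding one. A transcript annotated as a retained intron held 31.2% in replicate 1 and 38.8% in replicate 2. In 4 canonical genes the leading transcript itself is annotated as non-coding or as a decay target. These are Rps20, whose retained-intron transcript held 92.5% and 92.1%, Rpl35 at 90.8% and 89.3%, Rpl12 at 66.5% and 67.1%, and Rpl23 at 66.7% and 63.4%. These 4 were chosen after their values were seen. All these shares are of the TPM listed for the gene alone. For Rpl5 and Rpl12 the copies summed to more TPM than the gene itself. How the division of reads between gene and copies bears on the transcript shares was not tested. Introns of ribosomal protein genes are also known hosts of small nucleolar RNAs. The annotation places 58 snoRNA genes inside 30 of the 77 canonical genes, up to 5 of them in Rpl4, and none inside the 8 paralogs. Of the paralogs, Rps27rt and Rpl10l have only 1 transcript each, with 1 exon. The share of such hosts over all protein-coding genes is not given here.

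The canonical genes lie on 19 chromosomes, with 14 on chromosome 7 and 4 on the X (Rpl10, Rpl36a, Rpl39 and Rps4x). The share of all protein-coding genes on these chromosomes is not given here, so the counts are a description of position only. Of the 4 on the X, Rpl10, Rpl36a and Rpl39 each have an autosomal paralog among the 8 described above.

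Other genes that make or regulate ribosomes were read from lists of symbols. All 138 of their genes were detected in both libraries, against 59.9% of all protein-coding genes. Translation elongation factors and other TOP mRNAs, 14 genes, had a median of 326 TPM, led by Eef1a1, which brings aminoacyl-tRNA to the ribosome, at 3878 ± 11.6 TPM. Hnrnpa1, an RNA-binding protein, followed with 1048 ± 22.8 TPM and Npm1, a nucleolar chaperone, with 827 ± 10.2 TPM. Ribosome assembly factors, 20 genes, had a median of 56.0 TPM. The highest of them were the nucleolar proteins Ncl at 289 ± 0.460 TPM, Nop56 at 267 ± 2.01 TPM and Nop58 at 196 ± 11.4 TPM.

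The 11 genes of RNA polymerase I and its factors, which transcribe ribosomal RNA, had a median of 31.4 TPM, and the highest were Rrn3 at 93.8 TPM, Polr1d at 86.0 TPM and Polr1c at 83.2 TPM. The 13 genes that control growth and ribosomal protein mRNAs had a median of 27.2 TPM, led by Rheb, the activator of mTOR, at 141 ± 4.89 TPM, by Mycn at 81.5 ± 4.47 TPM and by the translation repressor Eif4ebp1 at 53.9 ± 0.304 TPM. Mitochondrial ribosomal proteins, which build the separate ribosome of that organelle, had a median of 82.7 TPM over 77 genes and 0.711% ± 0.00642 of TPM in all. Their highest genes were Mrps21 at 276 TPM, Mrpl42 at 223 TPM and Mrpl28 at 198 TPM. The median canonical cytosolic gene at 616 TPM was above the median of each of these lists. Of these 138 genes, Eif4ebp2, a translation repressor, was more than 25% higher in replicate 2, with 27.0 TPM there and 20.9 TPM in replicate 1. More than 25% apart in either direction were 21.3% of all genes tested and 0.749% of those with a mean of 1000 counts or more.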

How the data were processed

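Expected counts (estimated reads) and TPM were deposited by the authors for genes and transcripts, made on mm10 with GENCODE M4 per the deposited file descriptions. The deposited percent of each transcript is its part of the gene's TPM. Aligner, quantifier and strand setting: not given in the sources used here. TPM includes the spike-ins, which took 13.2% in replicate 1 and 11.8% in replicate 2.

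Gene names, biotypes and positions were read from GENCODE M21 (GRCm38), where 42462 of 43346 identifiers (97.96%) matched. The members, lists and settings were chosen with earlier results of these data known. Named genes are the 6 highest and 6 lowest canonical genes of each subunit, all paralogs with their partners, all genes below 1 TPM, Rps27a, Rpsa, the stalk proteins, Rps19bp1, the 3 largest ratios each way, the 6 lowest leading transcript shares and the 3 highest genes of each other list; others were named after their values were seen. A few genes under this rule are not reported here.

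Expected counts were rounded, scaled by TMM in edgeR 4.0.16 (R 4.3.3) and turned into log2 ratios with a prior count of 2 over genes with 10 counts in at least 1 library. The step was tested on simulated data. DESeq2 1.42.0 size factors, posterior mean estimates, pseudocounts of 0.1 and 10, other filters and each library alone were alternatives. Differences of levels used log2(TPM + 1). Copies were found with blastn 2.17.0. Python 3.11.15, pandas 2.3.3, scipy 1.17.1, biopython 1.88 and matplotlib 3.10.9 did the rest. Limits from 3 counts cover counting error only, since reads lacking molecular identifiers do not count molecules. Pools and libraries cannot be told apart, so the SD holds both sources of spread.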

Additional observations from a re-analysis of the deposited data

How the results depend on the processing

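Ribosomal protein genes took 5.27% of TPM, and this share was 5.11% with posterior mean estimates, 6.03% with TPM rescaled to annotated genes, and 6.56% with sequence copies added, an alternative chosen after seeing the data; it was 5.19% to 5.35% in the single libraries. The difference between large and small subunit medians kept its sign in every alternative: -0.17 with a pseudocount of 10 and in each library alone (-0.17 to -0.17), -0.26 with paralogs included, -0.30 with genes of less than 50% shared windows, and -0.12 with copies added. The number of paralogs below their partner was 4, and 4 to 5 in the single libraries, since Rpl22l1 was just below Rpl22 in replicate 2. The number of ribosomal protein genes more than 25% apart between the libraries was 0, and 2 with no filter on low counts, where Rpl3l and Rpl39l, with 1 to 3 counts in all, entered; it was 0 with DESeq2 size factors, the TPM ratio, a minimum of 100 counts, a prior count of 0.5, posterior mean counts and canonical genes alone. The 56 shared leading transcripts and the 138 detected genes stayed at those counts in their alternatives. Of 32 differences of single pairs recomputed with both libraries, 18 moved by less than the SD between the libraries and 14 by more, and none of those 14 changed sign. No paired analysis was possible because the series has 1 group. With 2 libraries and no contrast, the data cannot say how levels vary with age, tissue or cell type; how far the assignment of reads sets the levels of genes with near-identical copies was not tested.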
